A study of Mus musculus with 3 samples.

Results

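Odorant receptor genes form the largest gene family of the mouse, and each olfactory sensory neuron transcribes very few of them. A typical receptor gene has its coding sequence in a single exon, with a short noncoding 5′ exon, or several, lying upstream across introns. The promoter is therefore remote from the coding sequence, and it can be placed only by following the 5′ end of the transcript. RLM-RACE does this by ligating an RNA oligonucleotide to the 5′ end of decapped mRNA and amplifying from that end, so that the product starts at the capped end.

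The regions described here are the 629 regions of the Stringent array that contain a named receptor promoter, of 3608 regions called on that array, or 17.4% (16.2 to 18.7, exact Clopper-Pearson interval at 95%). They were chosen by the Stringent region calls, as every called region whose start and end enclose a position of the authors' table of named promoters. Each contained exactly 1 position, so they hold 629 of the 1085 named positions and 621 receptor names. RNA came from the olfactory epithelium, the sheet of the nose that holds these neurons, of C57/Bl6 mice aged 6 to 8 weeks, with 5 adults per sample. Complementary DNA was made with degenerate primers against receptor coding sequences and hybridised to tiling arrays. The Stringent group is 1 array of nested PCR products, with 3608 called regions. The High Coverage group is 2 arrays of products amplified in a non-nested PCR, with 7266 and 6311 called regions. No group carried a treatment or a transgene. Since Stringent has no replicate, no test between the groups was run, and intervals cover counting error over regions only.

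The choice used the Stringent region list, so Stringent scores and edges of these regions are descriptions. The High Coverage arrays were not used to choose them. The named positions themselves may follow signal on any of the arrays, since no source used here says how they were set. Coordinates are those of the deposited files on build mm9.

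Sequence before the gene start is shown for 4 of the strongest regions, to show its base composition. No sequence of the files' build was used here, so it comes from RefSeq on build GRCm38.p6 and covers the 250 bases before the RefSeq start of the gene. Of the 621 names, 499 were found there with 503 starts, but 361 of those starts, or 71.8%, were at an ATG. For these the sequence before the start precedes the coding sequence and need not be a promoter. The starts kept were the 68, of 64 genes, that were not at an ATG and whose gene model was over 2000 bp long. The 4 printed belong to the kept genes with the highest Stringent region scores, a choice made after the data were seen. Whether the RefSeq start and the named position are the same base was not determined, since the builds differ. Both strands were searched for the TATA box letters TATAAA and for TAATTA, a homeodomain core. The search also took in its variant TAATTG, and the Olf-1/EBF core, which is TCCC, then 2 bases of any kind, then GGGA. Capitals mark a match, which was TAATTG once in Olfr147 and once in Olfr1134.
Olfr147, chr9:38401461-38401710, plus strand: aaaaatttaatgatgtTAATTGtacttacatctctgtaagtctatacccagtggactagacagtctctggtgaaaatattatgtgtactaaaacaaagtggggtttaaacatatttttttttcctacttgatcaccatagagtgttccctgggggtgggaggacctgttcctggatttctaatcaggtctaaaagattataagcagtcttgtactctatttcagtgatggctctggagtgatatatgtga
Olfr1110, chr2:87140234-87140483, minus strand: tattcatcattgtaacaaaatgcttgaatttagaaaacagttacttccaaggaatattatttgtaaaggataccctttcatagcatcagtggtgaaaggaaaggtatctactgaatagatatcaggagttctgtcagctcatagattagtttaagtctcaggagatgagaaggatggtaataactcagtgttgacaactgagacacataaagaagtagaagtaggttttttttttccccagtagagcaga
Olfr1134, chr2:87658458-87658707, minus strand: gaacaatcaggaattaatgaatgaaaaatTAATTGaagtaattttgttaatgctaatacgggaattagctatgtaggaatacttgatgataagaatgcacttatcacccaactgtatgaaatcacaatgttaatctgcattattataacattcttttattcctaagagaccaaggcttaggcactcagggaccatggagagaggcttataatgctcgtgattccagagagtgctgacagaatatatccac
Olfr180, chr16:58918487-58918736, minus strand: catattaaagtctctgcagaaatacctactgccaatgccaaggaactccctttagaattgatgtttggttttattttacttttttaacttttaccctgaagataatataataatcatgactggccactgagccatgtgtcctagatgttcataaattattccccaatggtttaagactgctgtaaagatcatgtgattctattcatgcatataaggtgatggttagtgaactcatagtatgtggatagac
Each of these stretches is rich in A and T, from 63.6% to 65.2% of bases. Over the 68 kept starts the median was 62.2% (quartiles 56.8 and 65.2), against 47.6% over all 32851 RefSeq starts of the table. The receptors without such a region, at 34 starts selected in the same way, had a median of 60.8%. TAATTG was in 36.8% of the 68 stretches and 7.17% of all, TAATTA in 20.6% and 4.84%, and TATAAA in 25% and 12.4%. The other receptors had 32.4%, 17.6% and 23.5%. The Olf-1/EBF core was found in 0 of the 68, in 0 of the other receptors' 34 and in 0.779% of all. At so low a share over all, nothing is read from 0 of 68. A match describes the letters of the window and is not a binding site.

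From the named position, the called Stringent region ran downstream for a median of 269 bp (248 to 284, binomial interval of the median at 95%), with quartiles of 166 and 405 bp. This distance from the position to the 3′ edge of the region, in the direction of transcription, is called the downstream extent and stands for the length of first-exon signal. It ranged from 11 to 1268 bp. It was under 100 bp in 30 regions, from 100 to under 200 bp in 185, from 200 to under 300 bp in 158, from 300 to under 400 bp in 95, from 400 to under 500 bp in 87 and longer in 74. The upstream side was short and uniform, with a median of 45 bp and quartiles of 34 and 55 bp. Only 11 regions reached more than 100 bp upstream of the position. The regions therefore differ in length mainly through their 3′ edge.

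**Figure D1:**
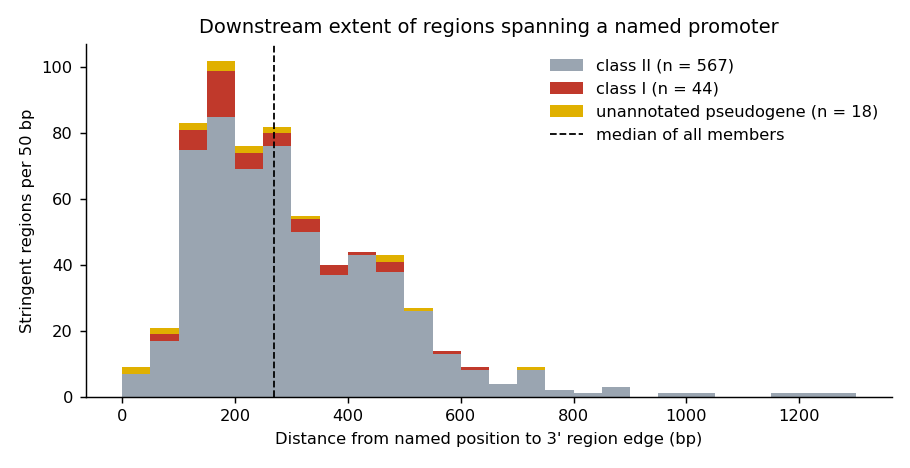
Number of Stringent regions (vertical axis) by distance from the named position to the 3′ region edge in bp (horizontal axis, bins of 50 bp), stacked by receptor class. The dashed line is the median of 269 bp, and the longest region reaches 1268 bp.

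The edge of a called region is not an exon boundary. MAT scores combine standardised probes over a window, and the last probe at or above the authors' threshold of 2.52 was 211 bp from the position in the median region. In the last 50 bp before the deposited edge the median Stringent score was only 0.084, so the extent runs past the probes that reached the threshold. In 91 of the 629 regions another Stringent region followed within 10 bp, and with such pieces joined the median over all members was 295 bp. Whether joined pieces belong to 1 first-exon signal was not tested. Among those 91 the median went from 220 to 520 bp. At 102 regions the tiling had a gap of over 30 bp at the 3′ edge, so that the signal could not be followed without a break. Probes without a score counted as present here, so a stretch that lacked only scores was not taken as a gap. The 451 regions with neither a joined piece nor such a tiling gap had a median of 276 bp.

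The longest extents belonged to Olfr355 on chromosome 2, with 1268 bp, Olfr530 on chromosome 7, with 1248 bp, and Olfr145 on chromosome 9, with 1159 bp. Olfr60 on chromosome 7 followed with 1028 bp and Olfr48 on chromosome 2 with 952 bp. The region of Olfr355, chr2:36783168-36784502, had its highest Stringent score 1095 bp downstream of the position, that of Olfr60 882 bp and that of Olfr48 820 bp. In the median region the highest score lay 97 bp downstream, with quartiles of 67 and 181 bp. These 3 long regions were therefore strongest near their far end, which was not so in Olfr530, at 268 bp, or Olfr145, at 189 bp. Olfr530 and Olfr60 lie close together on chromosome 7, at 147562425 and 147533816, both on the minus strand.

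The shortest extents were those of Olfr1051, with 11 bp, Olfr1154, with 12 bp, Olfr1314, with 14 bp, an unannotated pseudogene on chromosome 1, with 17 bp, and Olfr294, with 17 bp. All 5 were followed by another Stringent region within 10 bp. With the pieces joined they had 377, 141, 145, 667 and 147 bp.

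Class I receptors, an older class whose genes form a single cluster on chromosome 7, had shorter extents than class II, the rest of the family. The median was 199.5 bp (171 to 261) over 44 class I regions and 275 bp (256 to 292) over 567 class II regions. Region scores ran the same way, with a median of 8.69 for class I and 13.2 for class II. Over all 629 regions the extent followed the score, with Spearman's rho = 0.770 and Pearson's r = 0.652 across regions of 1 array. The part of score in the class difference was not tested. The 18 unannotated pseudogenes had a median of 196 bp (120 to 304). Of the named positions, 44 of 106 in class I, 567 of 928 in class II and 18 of 51 in unannotated pseudogenes lay inside a Stringent region.

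Extents also varied by chromosome. Among chromosomes with at least 18 regions, the median was longest on chromosome 10, with 376 bp over 46 regions, on chromosome 16, with 322.5 bp over 26, and on chromosome 9, with 315 bp over 94. It was shortest on chromosome 17, with 185 bp over 19, and on chromosome 14, with 190 bp over 18. Chromosome 2, with 179 regions, had 233 bp, and chromosome 7, with 108, had 233.5 bp. Median region scores were also low on chromosomes 17 and 14, at 5.23 and 7.12, and higher on chromosomes 10, 9 and 16, at 14.4, 15.6 and 19.9, and their part in the order of extents was not tested. Intervals of the median extent did not overlap between chromosome 9 (282 to 356) and chromosome 2 (192 to 257). Chromosome 10 had a wide interval, from 269 to 428 bp. Neighbours resembled each other only weakly. Over 294 pairs of next members on the same strand within 50 kb, extents differed by a median of 103 bp, against 146 bp over all pairs of members, and rho was 0.188.

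On the Stringent array the score rose sharply at the position. Its median stood at -0.91 between 100 and 50 bp before the position, at 3.70 over the 50 bp after it and at 8.35 between 100 and 150 bp, and was down to 1.42 between 250 and 300 bp. This rise belongs to the choice of regions and is a description. The region choice used neither High Coverage array, and both also rose at the position, each on its own scale. The median on High Coverage 1 went from -0.65 between 100 and 50 bp before the position to 0.015 between 50 and 100 bp after it. On High Coverage 2 it went from -0.78 to 0.57. The 100 bp downstream had a higher mean score than the 100 bp upstream at 395 of 591 regions on High Coverage 1, or 66.8% (62.9 to 70.6), and at 422 of 591 on High Coverage 2, or 71.4% (67.6 to 75.02).

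Across the 3′ edge called on Stringent, scores fell on the other arrays as well, with most of the fall before the edge itself. The High Coverage 1 median was 0.13 between 100 and 50 bp before the edge, -0.32 in the last 50 bp and -0.47 in the 50 bp beyond. On High Coverage 2 these were 0.84, -0.18 and -0.41. Edges of other Stringent regions were not measured in this way, so the shares below have no background. The 100 bp inside the edge exceeded the 100 bp beyond it at 350 of 567 regions on High Coverage 1, or 61.7% (57.6 to 65.7), and at 388 of 567 on High Coverage 2, or 68.4% (64.4 to 72.2). The median drop in score was 0.38 on High Coverage 1 and 0.69 on High Coverage 2, against 2.90 on Stringent, where the edge was called. The 516 regions with an extent of at least 150 bp were each cut into 5 equal pieces from the position to the 3′ edge, and the median was highest in the middle piece on all 3 arrays. From the piece nearest the position to the middle piece, Stringent went from 5.04 to 11.6, High Coverage 1 from -0.32 to 0.22 and High Coverage 2 from -0.082 to 1.63. The last piece stood at 0.94, -0.24 and -0.17.

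**Figure D2:**
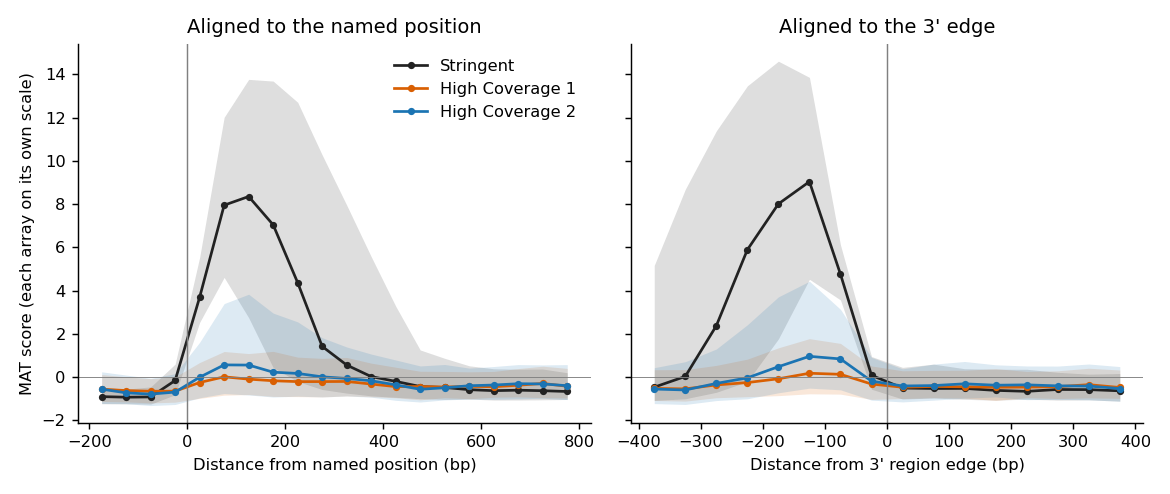
MAT score (vertical axis, each array on its own scale) against distance in bp from the named position (left) and from the 3′ region edge (right), in transcript direction over the 629 regions. Lines with points are medians per 50 bp bin, bands are quartiles. The Stringent median reaches 8.35 between 100 and 150 bp after the position, and in the left panel the High Coverage medians peak at 0.015 and 0.57 in the bin from 50 to 100 bp. In the right panel the medians peak between 150 and 100 bp before the edge, at 9.04, 0.18 and 0.96.

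A called High Coverage region overlapped 259 of the 629 regions on High Coverage 1, or 41.2% (37.3 to 45.1), and 350 on High Coverage 2, or 55.6% (51.7 to 59.6). Over all Stringent regions these shares were 50.8% and 55.4%, and over the 2979 regions that span no named promoter 52.9% (51.06 to 54.7) and 55.4% (53.6 to 57.2). The promoter regions thus had a lower share than the others on High Coverage 1, with intervals that did not overlap, and a share near the background on High Coverage 2. Regions of 1 array are not independent replicates, so these intervals do not show whether the difference would recur on another array. Both High Coverage arrays overlapped 218 of them, or 34.7%, where the background was 42.4%. At least 1 overlapped 391, or 62.2%, where the background was 63.9%, and 238 had no High Coverage region. High Coverage 2 alone overlapped 132 promoter regions and High Coverage 1 alone 41. Among the other Stringent regions these were 338 and 263.

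A measure without called regions gave the same order. Each interval's mean score was ranked as a percentile among all Stringent regions on the same array. The promoter regions had a median percentile of 40.3 (36.5 to 43.7) on High Coverage 1 and 49.97 (44.5 to 52.9) on High Coverage 2. The other Stringent regions had 52.1 (50.3 to 53.9) and 50.1 (48.3 to 52.2). The mean score was at or above the authors' threshold, 2.53 on High Coverage 1 and 2.99 on High Coverage 2, in 83 and 148 promoter regions, or 13.2% and 23.5%. Over all Stringent regions it was 22.8% and 26.8%. The input named in the file headers was female for High Coverage 1 and male for High Coverage 2, so array, preparation and sex of the mice cannot be told apart.

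Set against other Stringent regions of like score, the promoter regions had a lower share overlapped on High Coverage 1 in each score bin but the lowest, with intervals that did not overlap. All Stringent regions were put into 4 bins of near equal size by region score. In the highest bin, 16.05 and above, High Coverage 1 overlapped 59.5% (52.6 to 66.2) of 215 promoter regions and 80.3% (77.1 to 83.2) of 686 others. High Coverage 2 overlapped 74.4% (68.04 to 80.1) and 83.7% (80.7 to 86.4). In the bin from 8.12 to 16.02 the shares were 31.8% and 54.2% on High Coverage 1. On High Coverage 2, with overlapping intervals, they were 47.9% (41.0 to 54.8) and 57.4% (53.6 to 61.1). From 3.78 to 8.11 they were 27.7% (20.2 to 36.2) and 41.0% (37.5 to 44.5) on High Coverage 1, and 43.8% and 43.7% on High Coverage 2. In the lowest bin they were 38.4% and 40.1%, and 43.8% and 41.2%, with overlapping intervals. The promoter regions of the highest bin were shorter than the others in it, with a median of 444 bp against 556.5 bp. In the bin from 8.12 to 16.02 they were also shorter, at 322 bp against 397.5 bp. The lower bins had 213 bp against 216 bp and 141 bp against 139 bp. The part of length was not tested.

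**Figure D3:**
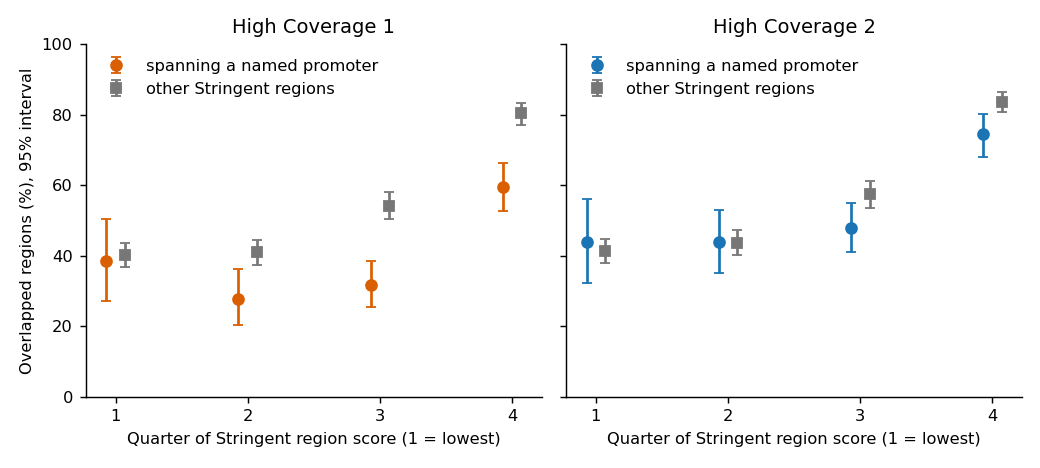
Share of Stringent regions overlapped by a High Coverage region (vertical axis, percent, bars are exact 95% intervals) by bin of Stringent region score (horizontal axis, 1 lowest to 4 highest). Circles are regions spanning a named promoter, squares all others, for High Coverage 1 (left) and High Coverage 2 (right). In the highest bin circles stand at 59.5% and 74.4%, below the squares at 80.3% and 83.7%.

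The overlapping High Coverage region often began inside the promoter region rather than at its start. It held the named position itself at 118 regions on High Coverage 1, or 18.8%, and at 178 on High Coverage 2, or 28.3%. Where it overlapped without holding the position, it began downstream of it in 133 of 141 cases on High Coverage 1 and 169 of 172 on High Coverage 2. Its near edge then lay at a median of 84 bp (57 to 111) and 66 bp (45 to 78) from the position. The promoter regions reached a median of 45 bp upstream of the position and 269 bp downstream. An overlap that missed the position had little room upstream, so nothing is read from how often it lay downstream.

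Where a High Coverage region did hold the position, its 3′ edge lay near that of Stringent in many cases. The median difference, High Coverage minus Stringent, was -15 bp (-30 to 0) over the 118 on High Coverage 1 and -6 bp (-15 to 0) over the 178 on High Coverage 2. The edges were within 20 bp of each other in 40 of 118, or 33.9%, and 78 of 178, or 43.8%. They fell short by more than 20 bp in 53 and 67 and went beyond by more than 20 bp in 25 and 33. Across these regions the extents had rho = 0.467 with High Coverage 1 and rho = 0.701 with High Coverage 2. All arrays read the same probes, so tiling gaps would place an edge alike on each.

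All 3 arrays had a region at the position for 91 promoters, and in 25 of them the 3′ edges lay within 20 bp of Stringent on both other arrays. The longest of these were chosen after their values were seen. Olfr144 on chromosome 9 had extents of 515 bp on Stringent, then 510 bp on the first and 525 bp on the second High Coverage array. Olfr1290 on chromosome 2 ended at 503 bp on all 3 arrays, with mean scores of 14.5, 13.0 and 10.4. Olfr191 on chromosome 16 had 303, 283 and 298 bp, and Olfr1433 on chromosome 19 had 292, 272 and 277 bp.

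**Figure D4:**
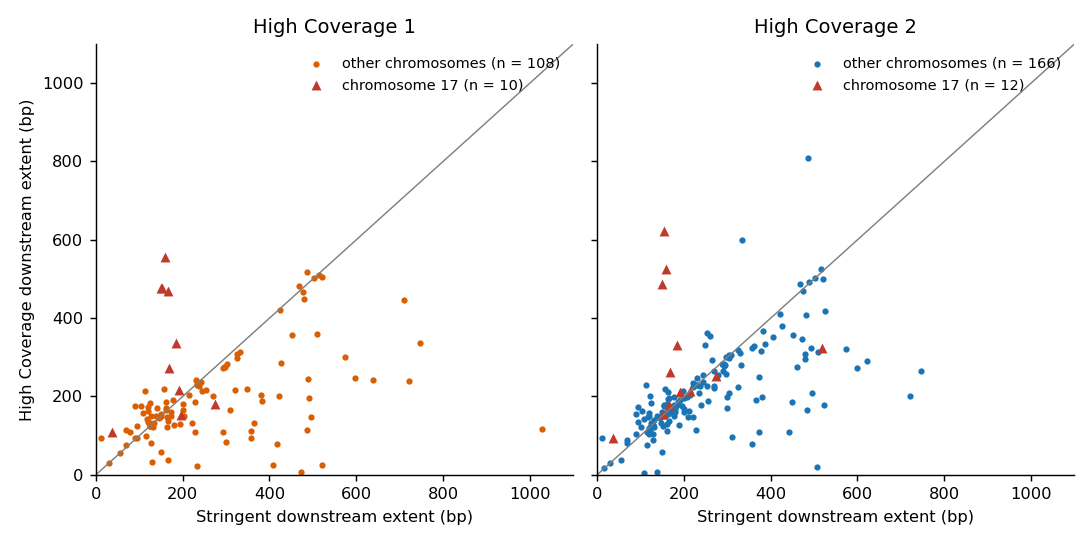
Downstream extent in bp on High Coverage 1 (left) and High Coverage 2 (right), vertical axes, against that on Stringent, horizontal axes, for regions whose position lies in a region on both arrays. The line marks equal extents. Most points lie on or below it, with medians of -15 and -6 bp, and red triangles mark chromosome 17.

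Among the highest Stringent region scores were Olfr147, with 28.2, and Olfr969, with 28.1, both on chromosome 9. Olfr1110, with 28.1, and Olfr1134, with 27.7, lie on chromosome 2, and Olfr476, with 27.2, on chromosome 7. The region of Olfr147, chr9:38209090-38209701, had mean scores of 14.9 on Stringent, then 0.70 on the first and 0.94 on the second High Coverage array. It thus stood at the 99.4 percentile on Stringent and at 56.0 and 49.97 on the other arrays. Olfr1110 had 13.8, 2.26 and 6.58, and Olfr969 had 11.1, 1.99 and 2.98. Olfr476 had 13.1, 0.37 and 1.05, and Olfr1134 had 10.1, 1.24 and 2.61. Stringent rank said little about High Coverage rank, with rho = 0.161 for High Coverage 1 and 0.207 for High Coverage 2 over the 629 regions. The High Coverage arrays had rho = 0.669 with each other. Over the 2979 other Stringent regions the same 3 values were higher, at 0.237, 0.267 and 0.748.

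The promoter regions that stood highest on both High Coverage arrays came from 1 stretch of chromosome 17, in the receptor cluster linked to the major histocompatibility complex. Ranked by the lower of their percentiles, the first 5 were an unannotated pseudogene at 37397551, Olfr109, Olfr103, another unannotated pseudogene at 37697265, and Olfr111. The pseudogene at 37397551 had mean scores of 2.76 on Stringent, then 17.5 on the first and 16.9 on the second High Coverage array. Olfr103 had 1.35, 14.2 and 11.8. Olfr109 had 2.68, 12.3 and 12.2, and Olfr111 had 2.36, 13.0 and 11.0. Stringent was low in each of these while both High Coverage arrays were among their highest.

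Of the 10 promoter regions between Olfr-pseudo_unannotated_33 at 37345178 and Olfr-pseudo_unannotated_36 at 37697265, a span set after the values were seen, 7 were at or above the 90 percentile on both High Coverage arrays. The exceptions were Olfr96, at 53.3 and 81.5, Olfr108, at 96.5 and 83.0, and Olfr110, at 5.87 and 62.7. Over all members 24 of 629 reached that level, among them 7 of the 19 on chromosome 17. In 8 of the 10 a region on each High Coverage array held the position, and all 8 reached further downstream than Stringent on both, 4 of them by more than 100 bp. Of the rest, Olfr96 had 519 bp on Stringent and 325 bp on High Coverage 2, and Olfr110 had 151 and 156 bp, and neither had a High Coverage 1 region at the position. At the pseudogene at 37397551 the extent was 153 bp on Stringent and reached 478 bp on the first and 622 bp on the second High Coverage array. In the same order of arrays it was 150, 478 and 488 bp at Olfr103, 159, 555 and 525 bp at Olfr111, and 185, 336 and 331 bp at Olfr109. Another Stringent region began 21 bp beyond the edge at this pseudogene and 46 bp beyond it at Olfr103, just too far to be joined. The short Stringent extent of these 2 thus depends on where regions were split. At Olfr109 and Olfr111 the next one began 2234 and 2391 bp beyond. Only 5 members were longer by more than 100 bp on both High Coverage arrays, and the remaining one was Olfr958 on chromosome 9, with 112, 215 and 230 bp.

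**Figure D5:**
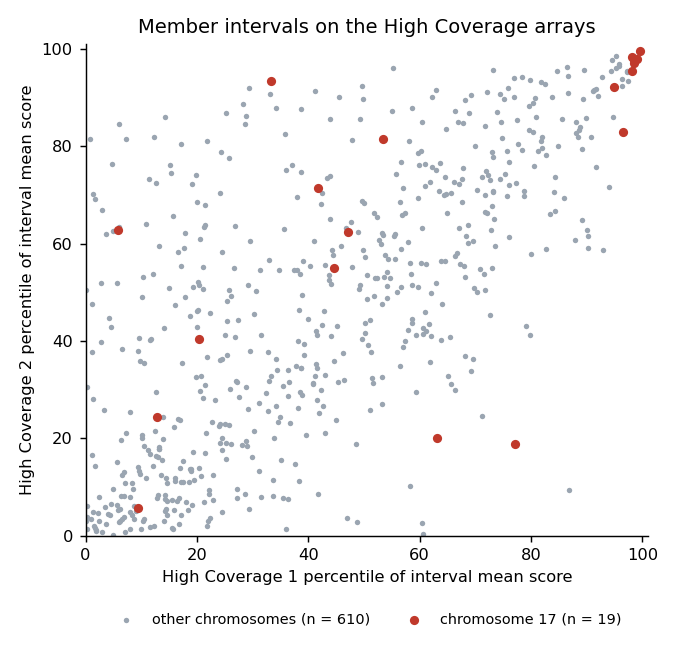
Percentile of the mean score of each promoter region among all Stringent regions, on High Coverage 1 (horizontal axis) and High Coverage 2 (vertical axis). Each point is 1 of the 629 regions. Red points are the 19 regions of chromosome 17, of which 7 lie at or above 90 on both axes.

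At the other end, some promoters with a called Stringent region had negative mean scores on both High Coverage arrays. Olfr556, a class I receptor, had mean scores of 4.44 on Stringent, then -1.69 on the first and -1.53 on the second High Coverage array. Olfr1391 on chromosome 11 had 6.42, -1.37 and -1.45, and Olfr506 on chromosome 7 had 4.55, -1.32 and -1.56. Olfr873 on chromosome 9 had 2.78, -1.33 and -1.59, and Olfr1500 on chromosome 19 had 2.07, -1.35 and -1.53. Stringent was low in these last 2 as well, at the 37.6 and 24.9 percentiles, much as in the chromosome 17 regions above. All 5 were at or below the 2.04 percentile on both High Coverage arrays, and no called region overlapped them there.

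The 2 High Coverage arrays differed most at Olfr33, Olfr170, Olfr704, Olfr1444 and Olfr876. Olfr33, a class I receptor, had mean scores of -1.51 on High Coverage 1 and 4.23 on High Coverage 2, and its Stringent mean of 1.35 was low. Olfr170 on chromosome 16 had -1.04 and 4.90, with 11.1 on Stringent. Olfr1444 on chromosome 19 had -0.98 and 4.23, with 8.31 on Stringent, and Olfr876 on chromosome 9 had -0.72 and 5.34, with 8.80. Olfr704 on chromosome 7 went the other way, with 4.11 on High Coverage 1 and -0.90 on High Coverage 2. Over members the median absolute difference was 10.5 percentile points, and it was 10.4 over the other Stringent regions.

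Of 18 receptors with known ligands or long use in the field, 14 had a named position and 9 of these were in a promoter region, where 58.0% of all 1085 positions were. Olfr17, Olfr1509, Olfr545, Olfr690 and Olfr691 had a position outside any. A High Coverage 1 region overlapped 6 of the 9 and a High Coverage 2 region 8, where the shares over all promoter regions were 41.2% and 55.6%, and nothing is read from so few. Olfr1507, known as MOR28, had an extent of 746 bp and mean scores of 13.0, 3.48 and 6.75. Olfr160, known as M72, had 305 bp and 11.5, 7.17 and 2.79. Olfr78, a receptor for short-chain fatty acids, had 261 bp, with 6.15 on Stringent, then -0.29 on the first and 5.34 on the second High Coverage array. Olfr558, which also responds to short-chain acids, had 297 bp and 4.10, -1.04 and -1.37. Olfr73, a eugenol receptor, had 161 bp and 1.73, 2.01 and 1.93. Olfr1440, a muscone receptor, had 30 bp as deposited and 206 bp with a following piece joined, and its means were 8.74, 5.37 and 7.18. Olfr62 had 279 bp, Olfr288 405 bp and Olfr2 366 bp.

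Near the H element, an enhancer on chromosome 14, 5 of 7 listed neighbours had a promoter region. Olfr1507 had the 746 bp given above, while Olfr1513 had 192 bp, Olfr1512 150 bp, Olfr1510 129 bp and Olfr1508 153 bp. High Coverage 1 overlapped 3 of the 5 and High Coverage 2 all 5, against the same 41.2% and 55.6% of all promoter regions. Near the P element, an enhancer on chromosome 7, 5 of 8 listed neighbours had one, and 2 of the 8, Olfr715 and Olfr712, had no named position. The 5 had extents of 510 bp at Olfr711, 472 bp at Olfr713, 384 bp at Olfr714, 366 bp at Olfr2 and 270 bp at Olfr6. High Coverage 1 overlapped 1 of these 5 and High Coverage 2 overlapped 2, against 41.2% and 55.6%.

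For 8 genes both named positions lay in a promoter region, which gives pairs of regions under 1 name. Whether both regions of a pair are first exons of the named receptor was not tested. Olfr1290 on chromosome 2 had its positions 4191 bp apart on opposite strands, with extents of 503 and 321 bp. The first had mean scores of 14.5, 13.0 and 10.4 while the second had 0.26 on High Coverage 1 and -1.31 on High Coverage 2. Olfr406 on chromosome 11 had 189 bp at its minus-strand position and 674 bp at its plus-strand position, 5446 bp apart. Only the longer had High Coverage means above the authors' thresholds, at 4.75 and 6.56. Olfr59, next to it, had 579 and 301 bp on the same strand, 3906 bp apart. Olfr1020, Olfr1026, Olfr1223, Olfr1506 and Olfr75-ps1 were the other 5. Of these, Olfr1020 and Olfr1506 also had their positions on opposite strands, in Olfr1506 at a distance of 96359 bp.

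Beyond the promoter region, with joined pieces included, the next Stringent region in the direction of transcription began at a median distance of 1367 bp, with quartiles of 556 and 2847 bp. It lay within 10 kb for 606 of the 629. This distance was not measured upstream or for other Stringent regions, so nothing is read from that count. Whether it belongs to the same transcript was not tested.

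At the limit of the rule, Olfr130, Olfr411 and Olfr1018 had their position on the edge of the region itself, and Olfr734 and Olfr332 1 bp inside it. Their region scores were 2.92, 3.82, 3.38, 2.69 and 2.84. Just outside it, a region began 1 bp downstream of an unannotated pseudogene's position on chromosome 19, with a score of 16.8, and 2 bp downstream of Olfr328, with 6.03, and Olfr1184, with 3.05. In all, 33 regions without a named position inside lay within 25 bp of one.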

How the data were processed

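The authors made 1 MAT score file and 1 region list per array, with no control array. Per the file headers, the bandwidth was 50, the largest gap allowed 30 and the probe minimum 5. The score is relative to the probes of the same array, and no scaling links the arrays, so arrays were compared through ranks, called regions and steps within an array. The authors' region score was used to describe and rank regions only. Build mm9 is named in the submitters' processing notes. Promoter positions are a table of the whole series.

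Probes at exactly 0 on all 3 arrays were read as unscored, which left 2188086 of 2313448. Means and highest scores were taken over scored probes between region start and end. Overlap was at least 1 bp. Steps used 100 bp on each side with at least 5 scored probes. With 1 Stringent array there was no test, and the number of arrays limits the precision. The 2 High Coverage arrays are separate samples per the labels, and their spread may be technical. Members, lists and rules were chosen with earlier results of these data known. Genes named were, by rule, the first 5 by longest and shortest extent, region score, High Coverage percentile and difference between High Coverage arrays, members of 3 receptor lists, and regions just inside and outside the limit of membership. Other genes, such as those with edges alike on all arrays, with both positions, with printed sequence or in the chromosome 17 stretch, were chosen after their values were seen. No region held more than 1 position. Alternatives covered membership, edge, overlap, score summary, class rule and each High Coverage array left out. Functions were tested on simulated regions and returned the planted distances, but the measure of tiling gaps was not among those tested. Cell type markers were not analysed here. Tables were handled with pandas 2.3.3 and numpy 2.4.6 under Python 3.11.15, intervals came from scipy 1.17.1, and plots from matplotlib 3.10.9. Promoter letters came from RefSeq on GRCm38.p6.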

Additional observations from a re-analysis of the deposited data

How the results depend on the processing

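The count of 629 regions stayed between 426 and 691 under the 4 other rules of membership. The median downstream extent of 269 bp was 211 bp to the last probe at or above the authors' threshold, 327.5 bp over the higher-scoring Stringent regions and 295 bp with pieces joined. By the last probe it was 139 bp for class I and 217 bp for class II, and with pieces joined 213.5 bp and 300 bp, so class I stayed shorter under each. The share overlapped on High Coverage, 48.4% as a mean of both arrays, was 33.5% with 50% of each region required to be shared, 38.1% with the higher-scoring High Coverage regions and 23.5% when the region had to hold the position. Leaving out each High Coverage array in turn gave 41.2% to 55.6% for this share, 40.3 to 49.97 for the median percentile of 45.1, and -15 to -6 bp for the 3′ edge difference of -10.5 bp. Among all scored probes the median percentile was 77.7. Pearson's r between the High Coverage arrays was 0.680 on percentiles and 0.737 on deposited scores. The cause of these shifts was not tested. Joining pieces, counting the edge as outside, leaving out broken or gapped regions and ranking among all probes were chosen after seeing the data. No value named here changed direction. The contrast with other Stringent regions, the steps at position and edge, and the chromosome 17 values had no alternatives, but the High Coverage 2 contrast differed by score bin. It was 55.6% against 55.4% in all, and 74.4% against 83.7% in the highest bin. In the next bin it was 47.9% against 57.4%, with overlapping intervals. The lower bins had 43.8% against 43.7% and 43.8% against 41.2%. No paired analysis was possible because Stringent has only 1 array.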
